A study of Rattus norvegicus with 12 samples.

Results

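The enzymes of the citric acid cycle were described at the transcript level in rat choroid plexus by day and by night. The symbols CS, IDH3A, IDH3B, IDH3G, OGDH, SUCLG1, SUCLG2, FH and MDH2 were looked up in the study's supplementary gene lists, which pair symbols with Ensembl identifiers. An identifier was found for 8 of the 9 symbols, all except OGDH, which was dropped, and these 8 genes are described among the 32883 genes of the tables. The names of the enzymes were the basis of the choice, but a symbol could be read only where these lists, held in part and sorted by level or by the study's own calls, paired it. The study asked whether the choroid plexus, the tissue that secretes cerebrospinal fluid, changes its gene expression between day and night. Male Sprague-Dawley rats of 9 weeks lived under a cycle of 12 h of light and 12 h of darkness, and no genetic change is named for them. The light group (n = 6) was sampled at zeitgeber time 8 h and the dark group (n = 6) at zeitgeber time 20 h, each 8 h after the onset of its phase. All rats were anesthetized with ketamine and xylazine, and the dark group was kept from light other than dim red. The plexuses of the lateral ventricles and the fourth ventricle were taken whole, so that epithelium, stroma, vessels and blood were measured as 1 mixture. Light exposure and time of day cannot be told apart in this design.

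The citric acid cycle oxidizes acetyl groups in the mitochondrial matrix and hands the electrons to the respiratory chain. Citrate synthase brings acetyl-CoA into the cycle, the NAD-dependent isocitrate dehydrogenase and the 2-oxoglutarate dehydrogenase complex release carbon dioxide, succinyl-CoA ligase forms a nucleoside triphosphate, and fumarase and malate dehydrogenase return the chain of reactions to oxaloacetate. The choroid plexus epithelium is rich in mitochondria, which supply the ATP for ion transport and fluid secretion.

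All values are in TPM, the share of a library that a transcript takes after correction for its length. Levels can thus be compared between genes, apart from any bias of measurement that is fixed for a gene. The study aimed at 12 Gb per library, and the number of reads in each library was not known. From steps of 1 read in weakly expressed genes the relative depth ranged from 0.879 to 1.364 in the light libraries and from 0.895 to 1.088 in the dark libraries. All 14 listed markers of choroid plexus epithelium were detected, and transthyretin (TTR) alone took 25.4 to 31.0% of the TPM. The light library of replicate 2 stood apart. Its TTR share of 25.4% was the lowest of the 12, and its summed level of 4 of 5 listed blood markers was 29700 TPM, against at most 9765 TPM in the other light libraries and 4319 to 11180 TPM in the dark libraries. Its 3 of 8 listed vessel wall markers summed to 544.7 TPM, against at most 275.1 TPM in the other light libraries and 346.7 TPM in the dark libraries. Results are therefore also given without it. Markers could be read only above a mean of 33.5 TPM, so that none of them could be found at 0. The epithelial markers summed to 267100 to 317700 TPM in the light libraries and 301000 to 324900 TPM in the dark libraries, with 4 of 14 passing as higher by night and 2 as higher by day in the test described below (17.7% of all genes passed). Of the 3 vessel wall markers TAGLN was higher by day (log2 fold change, dark over light, -0.72, limma, FDR = 0.0272), and of 3 of 6 listed ependymal markers DYNLRB2 was (-0.37, limma, FDR = 0.0343). The call of TAGLN was lost without light replicate 5 or dark replicate 2, 3 or 6, and that of DYNLRB2 without light replicate 2, 4 or 6 or dark replicate 1, 3, 4 or 6. Both calls were also lost with the covariate described below, where 2.77% of all genes passed, and that of DYNLRB2 without a filter on low values. For the 4 blood markers the median log2 fold change was -0.518, or -0.238 without the light library of replicate 2, with 0 passing (limma, 1 at an unadjusted p below 0.05), and 0 of 3 stromal and 0 of 3 macrophage markers passed, also at an unadjusted p below 0.05 (limma). The part of these cell types in the results was not tested. In whole tissue, fewer cells of a type and less RNA per cell cannot be told apart.

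The 8 genes were expressed within a narrow band of levels, from 59.5 TPM for CS to 167.2 TPM for MDH2 as means over 12 libraries. MDH2, the mitochondrial malate dehydrogenase, was followed by IDH3A at 118.2 TPM, IDH3B at 108.5 TPM, SUCLG2 at 98.6 TPM, IDH3G at 82.7 TPM, SUCLG1 at 73.6 TPM and FH at 63.8 TPM. Each gene exceeded the next lower one in 11 or 12 of the 12 libraries. All 7 neighbouring pairs differed beyond their spread, with adjusted p between 0.000854 and 0.00146 (two-sided exact sign-flip permutation test over 12 libraries). The widest step was the first, with MDH2 at 1.416 times IDH3A, and the narrowest the last, with FH at 1.071 times CS. The order by mean level was the same in both phases. With the light libraries alone 5 of the 7 steps passed the threshold, and with the dark libraries alone 6 of 7, where the smallest possible p of 6 libraries is 0.0312 (exact sign-flip permutation test) and at least 5 steps must reach it for any to pass. The partner subunits were thus not at equal levels in TPM. The test shows that a difference recurs between rats. It cannot tell a difference in transcript number from a bias of measurement that is fixed for a gene, which matters most for the narrow steps. IDH3A exceeded IDH3G in every library, and SUCLG2 exceeded SUCLG1 in every library.

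**Figure D1:**
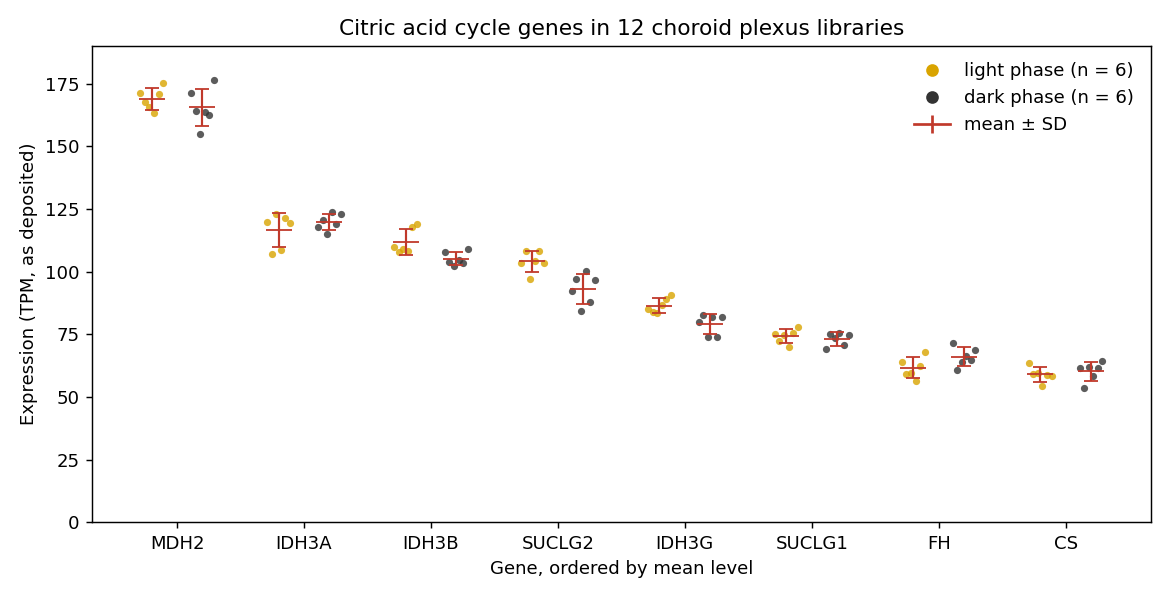
Transcript levels of the 8 citric acid cycle genes in TPM as deposited, ordered by mean level, with 1 point per library and red bars for mean ± SD in the light (n = 6) and dark (n = 6) phase. MDH2 is highest at 167.2 TPM and CS lowest at 59.5 TPM, and the light and dark points of IDH3G do not overlap.

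Between the phases, transcript levels differed by little. Of the 8 genes, 1 passed the test, SUCLG2, which was higher in the light phase (limma, FDR below 0.05 over the 12513 genes tested). Across all genes tested, 17.7% passed, with 8.08% higher by day and 9.64% higher by night. Among the 1545 genes with a mean between 50 and 200 TPM, the range that holds the 8 genes, 24.9% passed. At an unadjusted p below 0.05, 3 of the 8 genes were higher by day and 0 by night, against 14.6% and 16% of all genes (30.6% in either direction). The median log2 fold change of the 8 genes, dark over light, was -0.042, against -0.0057 for all genes and -0.024 for genes between 50 and 200 TPM. It was -0.064 without light replicate 2 and -0.023 without light replicate 6, against -0.0057 and -0.0039 for all genes. With the covariate described below it was -0.007, against 0.0012 for all genes. With upper quartile scaling it was -0.067, and with TPM summed without TTR and the mitochondrial genome -0.012. The median of all genes moved alike there, to -0.0298 and 0.0221. The distance from the median of all genes thus depended on single libraries and on the covariate, and little on these scalings. The share that passed among the 8 genes, 12.5%, depended on the processing. Between 0 and 3 of the 8 passed under the alternatives given below, with 3 passing when the light library of replicate 2 was left out, where 17.9% of all genes passed.

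Succinyl-CoA ligase joins an alpha subunit, SUCLG1, to either of a pair of beta subunits, where SUCLG2 gives the GTP-forming and SUCLA2 the ATP-forming enzyme. SUCLG2 (ENSRNOG00000005686) was measured at 103.4, 108.4, 96.9, 104.1, 108.4 and 103.6 TPM in light replicates 1 to 6. In dark replicates 1 to 6 it was at 92.3, 97.0, 84.2, 100.4, 87.8 and 96.5 TPM. The light library of replicate 3 lay within the dark range, and dark replicates 2 and 4 exceeded it, so that the phases overlapped at their edges. The level was 104.1 ± 4.22 TPM in the light group and 93.0 ± 6.12 TPM in the dark group (SD, n = 6 per group), 11.9% higher by day. The log2 fold change was -0.18 with a standard error of 0.051 and a 95% interval from -0.29 to -0.07 (limma, FDR = 0.0294). Without the light library of replicate 2 it was -0.18 (limma, FDR = 0.0381). The call was lost when light replicate 4, 5 or 6 or dark replicate 1, 3 or 5 was left out, with FDR between 0.0577 and 0.0733 and log2 fold changes from -0.17 to -0.15. The sum of FPKM over the sum of TPM, which falls as longer transcripts take more of a library, was 0.9528 to 0.9873 in the light and 0.9338 to 0.9603 in the dark libraries. With this ratio as a covariate the SUCLG2 estimate was -0.06 (limma, FDR = 0.697), and 2.77% of all genes passed, 0.967% with the higher level by day.

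SUCLG1 (ENSRNOG00000005587), the alpha subunit, ranged from 69.8 to 77.9 TPM in the light group (median 74.9) and from 68.9 to 75.3 TPM in the dark group (median 74.0). The ranges lay almost on top of each other. Its log2 fold change was -0.04 with a 95% interval from -0.13 to 0.05 (limma, FDR = 0.58), an interval that reaches neither the estimate of SUCLG2 nor a change of that size in the other direction. It was -0.06 without the light library of replicate 2 (limma, FDR = 0.305). Without light replicate 6 or dark replicate 1 it was -0.02 (limma, FDR = 0.823 and 0.805).

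NAD-dependent isocitrate dehydrogenase is built from the catalytic alpha subunit IDH3A and the subunits IDH3B (beta) and IDH3G (gamma), of which the gamma subunit carries allosteric sites. IDH3G (ENSRNOG00000055572) was measured at 84.9, 83.7, 83.6, 86.6, 89.0 and 90.8 TPM in light replicates 1 to 6. In dark replicates 1 to 6 it was at 79.9, 82.5, 74.1, 81.9, 73.8 and 81.8 TPM. Every light library exceeded every dark library in TPM as deposited, by 83.55 against 82.51 TPM at the closest, whereas after scaling of the libraries the phases overlapped. Such separation with the light phase higher was seen in 3.14% of all genes, and separation in either direction in 8.26%. The means were 86.4 ± 2.95 and 79.0 ± 4.00 TPM (SD, n = 6 per group), 9.41% higher by day. The log2 fold change was -0.14 with a 95% interval from -0.25 to -0.04 and did not pass (limma, FDR = 0.0632). Without the light library of replicate 2 it was -0.17 and passed (limma, FDR = 0.0307), where 17.9% of all genes passed and 8.55% were higher by day.

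IDH3B (ENSRNOG00000007316) ranged from 107.6 to 119.1 TPM in the light group (median 109) and from 102.3 to 109.2 TPM in the dark group (median 104.1). Light replicates 1, 5 and 6 lay above all dark libraries, and light replicates 2, 3 and 4 within the dark range. The means were 111.9 ± 5.19 and 105.1 ± 2.67 TPM (SD, n = 6 per group). The log2 fold change was -0.10 with a 95% interval from -0.20 to -0.01 and did not pass (limma, FDR = 0.12). It was -0.13 and passed once the light library of replicate 2 was left out (limma, FDR = 0.0369).

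IDH3A (ENSRNOG00000010277) was measured at 119.7, 107.2, 122.9, 108.8, 121.4 and 119.2 TPM in light replicates 1 to 6. In dark replicates 1 to 6 it was at 117.7, 120.4, 115.0, 123.8, 118.9 and 122.9 TPM. Light replicates 2 and 4 lay below all dark libraries and the other light libraries within the dark range. The log2 fold change was 0.03 with a 95% interval from -0.07 to 0.13 (limma, FDR = 0.747), and -0.02 without the light library of replicate 2 (limma, FDR = 0.796).

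CS (ENSRNOG00000023520), citrate synthase, ranged from 54.2 to 63.5 TPM in the light group (median 59.0) and from 53.7 to 64.2 TPM in the dark group (median 61.5). The phases covered the same range, and the log2 fold change was 0.01 with a 95% interval from -0.07 to 0.10 (limma, FDR = 0.858), or -0.00303 without the light library of replicate 2 (limma, FDR = 0.968). A change of CS by more than 0.10 on the log2 scale thus lay outside the interval. FH (ENSRNOG00000003653), fumarase, ranged from 56.4 to 68.0 TPM in the light group (median 61.1) and from 60.5 to 71.4 TPM in the dark group (median 65.5). Its log2 fold change of 0.08 was the highest of the 8, with a 95% interval from -0.03 to 0.19 (limma, FDR = 0.303), and 0.05 without the light library of replicate 2 (limma, FDR = 0.498). MDH2 (ENSRNOG00000001440) ranged from 163.3 to 175.2 TPM in the light group (median 169) and from 154.9 to 176.6 TPM in the dark group (median 164). The lowest and the highest library of MDH2 were both dark, and the log2 fold change was -0.05 with a 95% interval from -0.13 to 0.04 (limma, FDR = 0.449), and -0.07 without the light library of replicate 2 (limma, FDR = 0.256).

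**Figure D2:**
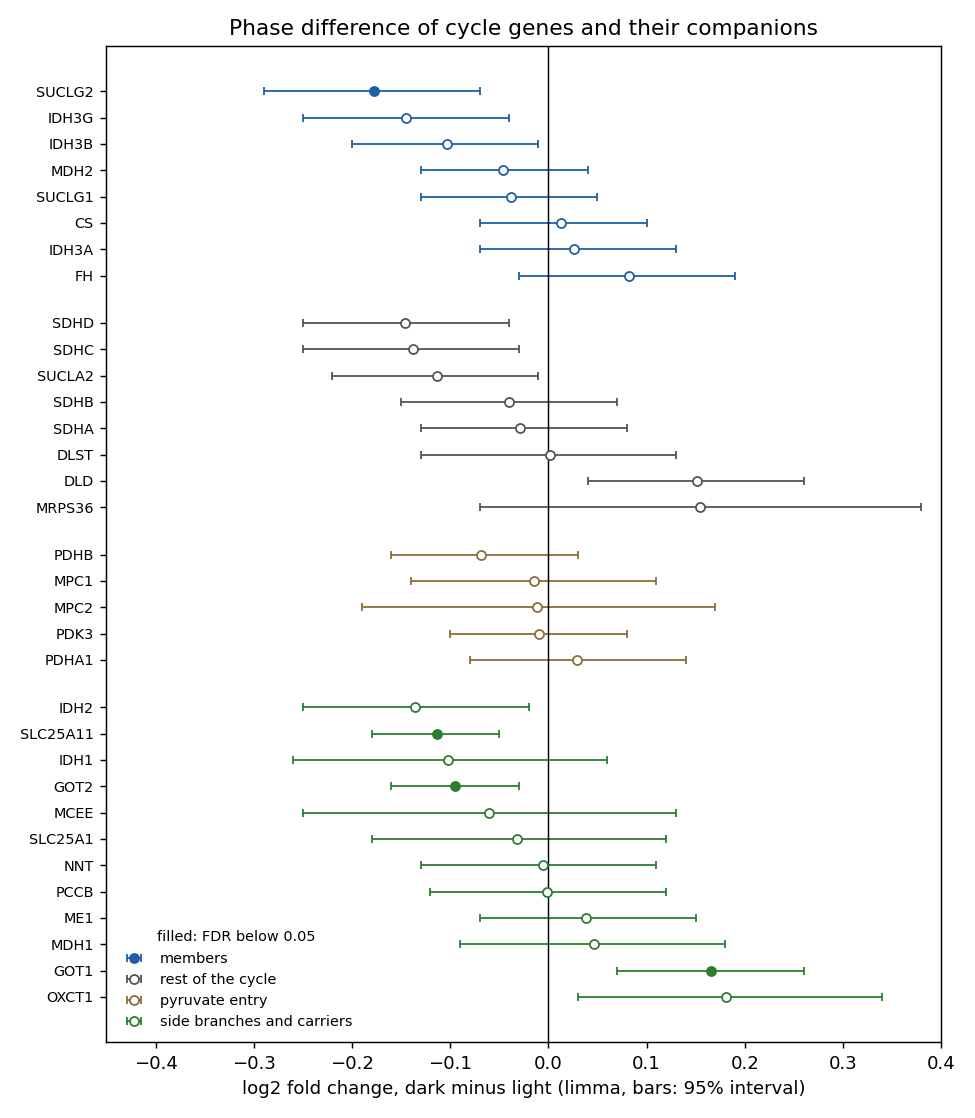
Log2 fold change, dark over light, with 95% intervals from limma for the 8 genes (blue), the rest of the cycle (gray), pyruvate entry (brown) and side branches and carriers (green), each ordered by estimate. Filled points passed an FDR of 0.05, among them SUCLG2 at -0.18, GOT1 at 0.17, GOT2 at -0.09 and SLC25A11 at -0.11.

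To show the sequence before the start sites of the genes with the 3 smallest p values, the 250 bases upstream of the RefSeq transcription start (assembly GRCr8) are printed for SUCLG2, IDH3G and IDH3B, which were chosen after their values were seen. All 3 genes lie on the minus strand, and sequences read 5′ to 3′ on the gene's strand. The windows are chr4:129893938-129894187 for SUCLG2, chrX:156675483-156675732 for IDH3G and chr3:137939991-137940240 for IDH3B. Capitals mark matches on either strand to GGGCGG (SP1), CCGGAAG (ETS and GABP family) or CCAAT.
SUCLG2: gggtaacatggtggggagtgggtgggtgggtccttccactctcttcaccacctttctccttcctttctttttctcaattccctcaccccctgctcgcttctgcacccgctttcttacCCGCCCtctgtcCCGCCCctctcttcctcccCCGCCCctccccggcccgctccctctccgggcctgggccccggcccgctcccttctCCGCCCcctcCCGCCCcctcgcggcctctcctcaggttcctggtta
IDH3G: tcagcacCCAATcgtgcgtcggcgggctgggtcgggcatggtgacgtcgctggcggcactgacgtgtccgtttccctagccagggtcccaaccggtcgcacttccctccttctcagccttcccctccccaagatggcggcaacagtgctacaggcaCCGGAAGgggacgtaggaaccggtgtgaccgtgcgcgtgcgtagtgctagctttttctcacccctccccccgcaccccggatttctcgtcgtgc
IDH3B: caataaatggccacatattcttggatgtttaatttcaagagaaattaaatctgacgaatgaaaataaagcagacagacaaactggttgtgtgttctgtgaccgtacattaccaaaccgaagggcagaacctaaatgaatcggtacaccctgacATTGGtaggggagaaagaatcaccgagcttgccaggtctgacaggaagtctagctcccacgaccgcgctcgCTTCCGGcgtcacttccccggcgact
The RefSeq table held 7 of the 8 genes, all but IDH3A. SUCLG2 had 5 matches to GGGCGG and no other match, with a GC content of 67.2% against a median of 51.2% over 33469 promoter windows. IDH3G and IDH3B each had 1 match to CCGGAAG and 1 to CCAAT, with a GC content of 65.2% and 47.2%. CCGGAAG was found in 3 of the 7 windows (IDH3B, IDH3G and MDH2) and in 7.27% of all windows. GGGCGG was found in 4 of 7 (SUCLG2, CS, MDH2 and FH) and in 30.5% of all, CCAAT in 4 of 7 (IDH3B, IDH3G, CS and FH) and in 34.0% of all. The cyclic AMP response element TGACGTCA was found in MDH2 only, and in 1.59% of all windows. Sequences known from clock factors were looked for as well. The E-box CACGTG, the D-box in the forms TTATGTAA and TTACGTAA and the ROR and REV-ERB site AGGTCA were found in 0 of the 7 windows and in 5.59%, 0.828%, 0.108% and 14.1% of all. The NRF1 site was found in 0 of 7 and in 0.762% of all. These counts describe letters within the windows only. TGACGTCA, TTACGTAA and CACGTG read the same on both strands, and none of the marked matches was tested for binding.

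The proportion of partner genes within a library was compared next, since such a ratio needs no scaling between libraries. In total, 10 pairs were compared, of which 9 are given, with the exact permutation test of phase labels over the 12 libraries, for which the smallest possible p is 0.00216. After Benjamini-Hochberg adjustment over the 10 pairs, 4 pairs differed between the phases. How many pairs of other genes would pass was not computed, and 24.9% of single genes between 50 and 200 TPM passed in limma. The ratios of IDH3A to IDH3G and to IDH3B share IDH3A, and IDH3B and IDH3G correlated over the libraries (r = 0.90). They are therefore not separate results. The ratio of IDH3A to IDH3G was 1.41, 1.281, 1.471, 1.256, 1.364 and 1.313 in light replicates 1 to 6, and 1.474, 1.459, 1.553, 1.511, 1.61 and 1.503 in dark replicates 1 to 6. Only light replicate 3 reached into the dark range. The dark ratio was 12.6% higher, a log2 difference of 0.17 with a 95% interval from 0.08 to 0.26 (two-sided exact permutation test, p = 0.00433, adjusted p = 0.0433). The ratio of IDH3A to IDH3B was 1.042 ± 0.056 in the light group and 1.14 ± 0.032 in the dark group (SD, n = 6 per group), 9.44% higher in the dark phase (exact permutation test, adjusted p = 0.0433). IDH3B to IDH3G, the subunits beside the catalytic one, differed by 0.04 on the log2 scale with a 95% interval from -0.02 to 0.10 (exact permutation test, adjusted p = 0.247). IDH3A to IDH3G passed in 10 of 15 alternatives and IDH3A to IDH3B in 6 of 15, and IDH3B to IDH3G in 0. The call of IDH3A to IDH3B was lost when light replicate 2, 4 or 5 or any of dark replicates 2 to 6 was left out.

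The ratio of SUCLG2 to SUCLG1 was 1.405 ± 0.084 in the light group and 1.274 ± 0.071 in the dark group (SD, n = 6 per group). It ranged from 1.296 to 1.498 in the light libraries and from 1.148 to 1.34 in the dark libraries, with light replicates 3 and 6 inside the dark range. In the dark group the ratio fell by 9.31%, with a log2 difference of -0.14 and a 95% interval from -0.25 to -0.03 (exact permutation test, adjusted p = 0.0487). It passed in 5 of 15 alternatives and was lost when light replicate 1, 2, 4 or 5 or any of dark replicates 2 to 6 was left out. The ATP-forming beta subunit was at a level near that of the GTP-forming one, with SUCLG2 at 0.873 ± 0.069 times SUCLA2 in the light and 0.834 ± 0.064 times in the dark group. This ratio differed by -0.07 on the log2 scale with a 95% interval from -0.21 to 0.08 (exact permutation test, adjusted p = 0.361), and was -0.03 without the light library of replicate 2 and -0.0033 from group medians. SUCLA2 to SUCLG1 had a log2 difference of -0.07 as well, with a 95% interval from -0.16 to 0.01 (exact permutation test, adjusted p = 0.117). It passed in 1 of 15 alternatives, without dark replicate 1, at -0.10 (exact permutation test, adjusted p = 0.0433).

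FH stood at 0.365 ± 0.015 times MDH2, the enzyme of the next step, in the light group and at 0.399 ± 0.018 times in the dark group (SD, n = 6 per group). The log2 difference was 0.13 with a 95% interval from 0.05 to 0.21 (exact permutation test, p = 0.00866, adjusted p = 0.0433), although neither gene passed alone. This ratio passed in 7 of 15 alternatives. MDH2 stood at 2.871 ± 0.124 times CS in the light and 2.758 ± 0.183 times CS in the dark group (exact permutation test, adjusted p = 0.29). MDH2 was at 0.203 ± 0.014 and 0.191 ± 0.009 times its cytosolic counterpart MDH1 (exact permutation test, adjusted p = 0.141), with a log2 difference of -0.09, or -0.06 without the light library of replicate 2. Without the light library of replicate 2, only IDH3A to IDH3G still passed, and the adjusted p was 0.0649 for IDH3A to IDH3B, 0.0649 for FH to MDH2 and 0.0823 for SUCLG2 to SUCLG1 (exact permutation test). The log2 differences were then 0.16, 0.12, 0.12 and -0.12 in this order. With 5 libraries against 6 the smallest possible p is 0.00433 (exact permutation test), or 0.0433 after adjustment where 1 pair alone reaches it. The same 1 pair passed without light replicate 4 or 5. Without dark replicate 3, 4, 5 or 6, 0 of the 10 pairs passed, and without dark replicate 2, 2 passed. Over the 15 alternatives run for the ratios, which do not include the covariate, the log2 differences stayed between 0.15 and 0.20 for IDH3A to IDH3G, 0.12 and 0.16 for IDH3A to IDH3B, 0.11 and 0.15 for FH to MDH2 and -0.16 and -0.11 for SUCLG2 to SUCLG1.

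**Figure D3:**
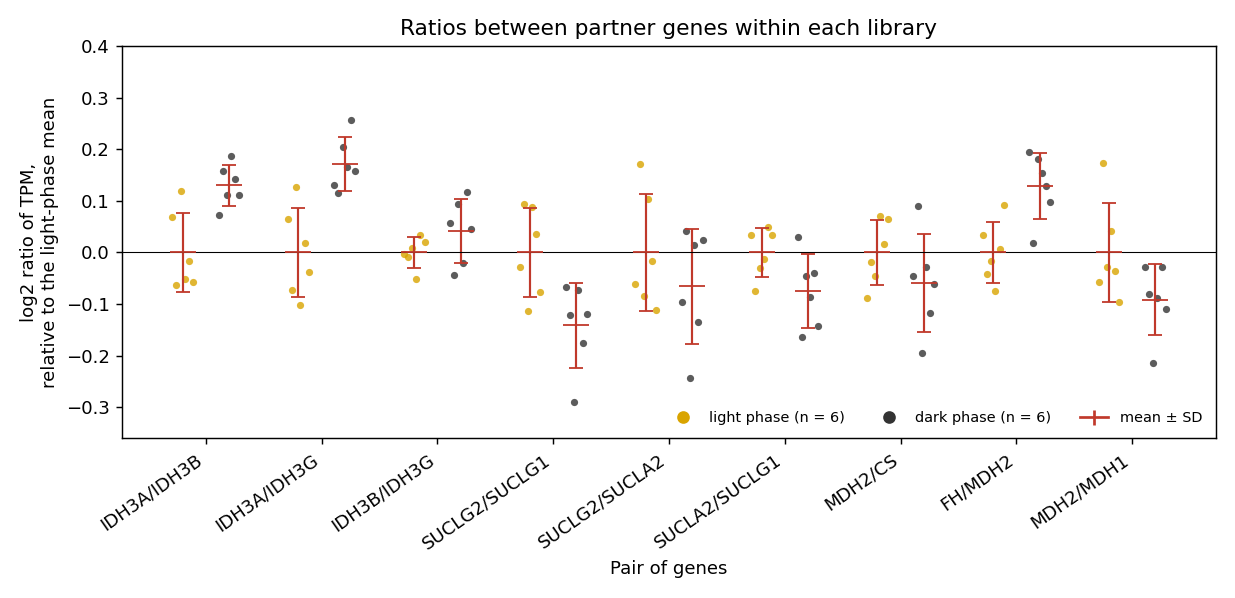
Log2 ratio of TPM between partner genes in each library, centred on the light-phase mean of the pair, with 1 point per library and red bars for mean ± SD (n = 6 per phase). IDH3A/IDH3B, IDH3A/IDH3G and FH/MDH2 lie higher and SUCLG2/SUCLG1 lower in the dark phase, and light and dark points overlap in all 9 pairs shown.

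The remaining genes of the pathway were read from lists of enzyme names, as far as an identifier was known. Of the rest of the cycle 9 of 11 genes could be read, and 0 passed, against 17.7% of all genes (limma). At an unadjusted p below 0.05, 1 was higher by night and 3 were higher by day, against 16% and 14.6% of all genes. SDHD, a membrane anchor of succinate dehydrogenase, was at 242.5 ± 11.1 TPM in the light and 221.3 ± 6.64 TPM in the dark group (limma, FDR = 0.0611). DLD, the dihydrolipoamide dehydrogenase shared by the 2-oxoacid dehydrogenase complexes, was at 66.4 ± 4.64 and 74.5 ± 1.57 TPM (limma, FDR = 0.0627). SUCLA2 was at 119.7 ± 7.60 and 111.7 ± 2.74 TPM (limma, FDR = 0.133). The count of 0 depended on the processing. Without the light library of replicate 2, SDHC, SDHD and SUCLA2 passed as higher by day, where 8.55% of all genes did. Sample weights gave the same 3 genes, where 8.99% of all genes were higher by day. Upper quartile scaling gave SDHC and SDHD, where 9.86% were. With TPM as deposited SDHC and SDHD passed as higher by day and DLD as higher by night (limma, FDR = 0.0225 for DLD). In that fit 6.68% of all genes were higher by day and 1220 of 12513 genes higher by night. DLD also passed when TPM was summed without TTR and the mitochondrial genome (limma, FDR = 0.0371) and without light replicate 6 (limma, FDR = 0.0209). There 1356 of 12513 and 1009 of 12532 genes were higher by night.

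Of pyruvate entry 5 of 13 genes could be read, and 0 passed, also at an unadjusted p below 0.05 (limma). The pyruvate dehydrogenase subunits PDHA1 and PDHB had log2 fold changes of 0.03 and -0.07, or 0.000801 and -0.10 without the light library of replicate 2. Without light replicate 6 these were 0.05 and -0.03. Of the side branches and carriers 12 of 24 genes could be read, and 3 passed, a share of 25% against 17.7% of all genes and 24.9% of those between 50 and 200 TPM. GOT1, the cytosolic aspartate aminotransferase, was higher in the dark phase, at 78.9 ± 1.71 against 69.6 ± 4.91 TPM (limma, FDR = 0.0174), and passed in 24 of 25 alternatives. GOT2, its mitochondrial counterpart, was lower in the dark phase, at 180.1 ± 4.21 against 190.5 ± 7.86 TPM (limma, FDR = 0.0393), and passed in 10 of 25 alternatives, with an FDR of 0.056 without the light library of replicate 2. SLC25A11, the carrier that exchanges malate for 2-oxoglutarate, was lower in the dark phase as well, at 100.9 ± 3.08 against 108.0 ± 3.23 TPM (limma, FDR = 0.0253). It passed in 17 of 25 alternatives, not with TPM as deposited (limma, FDR = 0.0533), nor without TTR and the mitochondrial genome (limma, FDR = 0.108). MDH1, which works with these 3 in the malate-aspartate shuttle, was at 834.2 ± 68.2 and 868.8 ± 41.4 TPM (limma, FDR = 0.66), with a log2 fold change of 0.05, or -0.01 without the light library of replicate 2. In the fit without that library 4 of the 12 genes passed, GOT1 as higher by night and SLC25A11, IDH1 and IDH2 as higher by day, where 17.9% of all genes passed. GOT1 alone passed with TPM as deposited, without TTR and the mitochondrial genome, and with the replicate block. The same held without light replicate 4 or 6 or dark replicate 3 or 4. With the covariate 0 of the 12 passed, where 2.77% of all genes did.

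Correlations across the 12 libraries were computed between the 8 genes. Of the 28 pairs among them 24 had a Pearson r above 0 on log2 TPM after scaling, with a median of 0.45, and 25 had one above 0 with a median of 0.54 after the phase means were removed. The highest values were 0.91 for IDH3G with SUCLG2, 0.90 for IDH3B with IDH3G and 0.85 for IDH3B with MDH2, and the lowest was -0.37 for CS with SUCLG2. Among all pairs of the 1545 genes between 50 and 200 TPM the median was 0.09, and 57.6% were above 0, against 85.7% of the 28. These background values hold with the phase means kept. None was computed with the phase means removed, so that the median of 0.54 has no background here. Without the light library of replicate 2, a reading added after the data were seen, 19 of the 28 pairs were above 0 with a median of 0.40, against 0.08 for the 1545 genes. That was 67.9% of the 28 pairs, where 56.6% of the pairs of the 1545 genes were above 0. The 3 pairs named above were then at 0.96, 0.91 and 0.84, and CS with SUCLG2 at -0.33. All pairs share their libraries and scaling. Of the 3045 genes searched, NDUFS4 (r = 0.92), NDUFB4 (r = 0.919), NIPSNAP2 (r = 0.918), ATP5F1B (r = 0.909) and IDH1 (r = 0.905) were most like the mean of the 8. RGD1565784 (r = 0.927), COQ6 (r = 0.912), SIRT3 (r = 0.905), VMP1 (r = 0.902) and BTF3L4 (r = 0.90) were most like SUCLG2. SUCLG2 was taken here for its smallest p, and each of these genes passed as higher by day too (limma, FDR from 0.00432 to 0.0261). Genes below 33.5 TPM, such as RGD1565784 and COQ6, had a symbol only through the study's own calls. Likeness to SUCLG2 thus repeats in part the phase difference. All of these are descriptions over 12 libraries.

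The calls were read again under 25 other ways of processing. With upper quartile scaling SUCLG2, IDH3G and IDH3B passed, where 16.7% of all genes did and 9.86% were higher by day. Sample weights gave the same 3 genes, where 19.4% of all genes passed and 8.99% were higher by day. TPM as deposited gave SUCLG2 and IDH3G, where 16.4% of all genes passed and 6.68% were higher by day. SUCLG2 passed in 18 of them, IDH3G in 4, IDH3B in 3 and the other 5 genes in 0. The estimates of SUCLG2, IDH3G, IDH3B and MDH2 were below 0 and that of FH above 0 in all 25, whereas CS, IDH3A and SUCLG1 changed sign in at least 1. With the covariate, however, IDH3G and IDH3B were both at -0.01 (limma, FDR = 0.931 and 0.941) and MDH2 at -0.0018, values near 0.

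**Figure D4:**
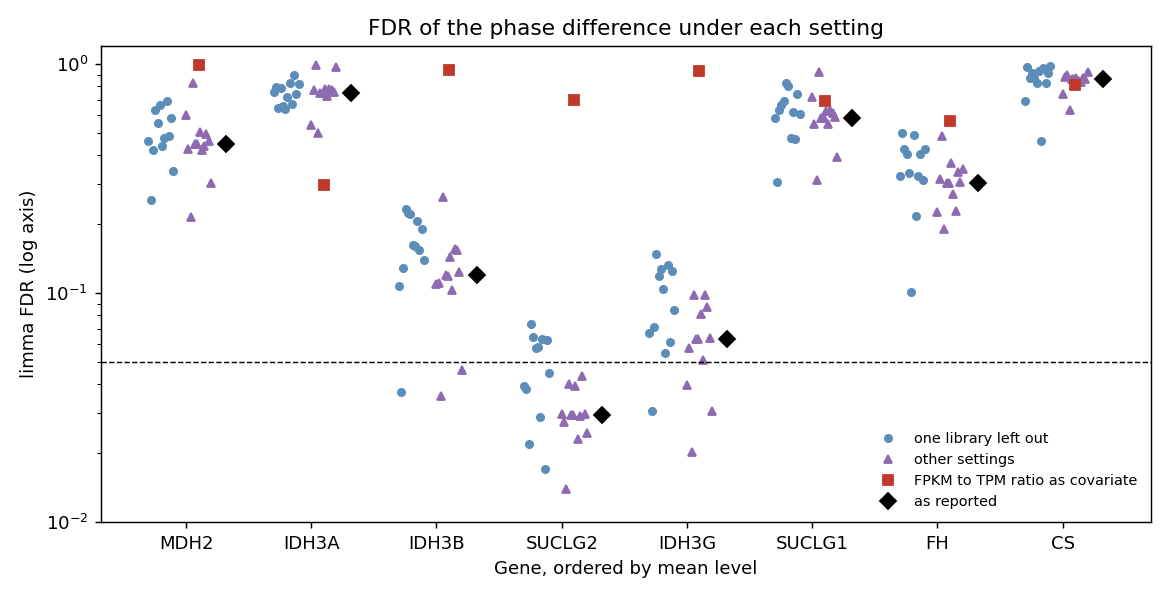
FDR of the phase difference from limma for each of the 8 genes on a log axis, as reported (black), with 1 library left out (blue), under other settings (purple) and with the FPKM over TPM ratio as covariate (red). The dashed line marks an FDR of 0.05, below which SUCLG2 lies in 18 of 25 alternatives.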

How the data were processed

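Choroid plexus RNA of 12 rats, 6 per phase and 1 library per rat, was sequenced as paired-end reads of 150 bp. Per the paper, a company (Novogene) extracted the RNA and prepared the libraries. Per the submitters' processing notes, reads were aligned to Rnor_6.0 (Ensembl release 104) with STAR 2.7.9a and quantified with RSEM 1.3.3. TPM, as deposited by the authors from RSEM, was the unit analysed. FPKM, deposited beside it in each table, served for relative depth (141 of 216 short, weakly expressed genes) and for the FPKM to TPM ratio, the sum of FPKM over the sum of TPM in a library. TTR takes a large part of each library, so that TPM of all other genes moves with it. The authors tested read counts with DESeq2. Since the files hold TPM and FPKM, limma 3.58.1 (R 4.3.3) was used, with phase as the only term.

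Libraries were scaled by the trimmed mean of their ratios to a reference (30% of ratios and 5% of levels trimmed at each end) and transformed as log2 of the value plus 0.5, which understates changes of weakly expressed genes. Genes whose mean reached 1 TPM (12513 of 32883) were tested, with Benjamini-Hochberg adjustment (FDR below 0.05). Means and percent differences of genes are in TPM as deposited. Exact tests, figures and promoter searches used Python 3.11.15, matplotlib 3.10.9, pandas 2.3.3, scipy 1.17.1 and numpy 2.4.6. Intervals of ratios come from inverting the exact permutation test, and percent differences of ratios from mean log2 ratios. Scripts were tested on simulated data. Libraries were checked for copies, with 0 identical pairs.

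Symbols were paired with identifiers through the supplementary gene lists of the study, held in part and sorted by level or by the study's own calls. Companion genes were paired only through the list sorted by level, whose lowest mean was 33.5 TPM, so that weaker genes could not be read, and the 7 neuron and glia markers listed had no pairing. The genes and lists were chosen with earlier results of these data known. Named were all 8 genes, companions that passed or enter a ratio, the 2 smallest p of a list in which none passed, and the 5 genes most like a profile with at least 10 TPM. SDHC, IDH2, TAGLN and DYNLRB2 were named after their values were seen, and IDH1 also for its value without light replicate 2. Alternatives were other scalings, pseudocounts, filters, variance models, sample weights, a covariate, a replicate block and leaving out each library. Of the rest of the cycle 1 gene, with its ratio, is not reported here, though it stayed in the fits, the counts and the adjustment over the 10 pairs. Metabolite data were not analysed here.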

Additional observations from a re-analysis of the deposited data

Results flagged for a closer look

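Among the 6 libraries of each phase, the levels of the 8 genes and the 10 ratios were examined for a library far from the rest by Dixon's test. Of 36 such groups 0 held one, where about 1.8 would be marked by chance.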

How the results depend on the processing

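The number of the 8 genes that passed (1) was 2 with TPM as deposited, 3 with upper quartile scaling, 3 with sample weights and 0 with the FPKM over TPM ratio as covariate. With 1 library left out it ranged from 0 to 3. It was 3 without light replicate 2 and 0 without light replicate 4, 5 or 6 or dark replicate 1, 3 or 5. Of 200 log2 fold changes of the 8 genes under alternatives, 180 kept their direction and side of the threshold, 7 passed in addition, 7 no longer passed and 6 reversed. CS reversed to -0.01 with upper quartile scaling, to -0.03 with the covariate, to -0.00303 without light replicate 2 and to -0.00198 without dark replicate 6, where leaving out 1 library gave at most 0.04. With 1 library left out, IDH3A ranged from -0.02 (without light replicate 2) to 0.04 and MDH1 from -0.01 (without light replicate 2) to 0.08. SUCLG1 reversed to 0.05 with the covariate. None of these reversed values passed. Upper quartile scaling shifts all genes alike and moved the median of all genes from -0.0057 to -0.0298. The reversal of CS there thus says nothing about CS alone. The cause of the other reversals was not tested.

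The number of ratios that passed (4) ranged from 0 to 5 with 1 library left out. It was 1 without light replicate 2, 4 or 5, 2 without dark replicate 2 and 0 without dark replicate 3, 4, 5 or 6. With phases exchanged only within replicate numbers (the replicate block) it was 0, but there the smallest exact p is 0.0312, which at least 7 of the 10 pairs would have to reach, and the log2 differences were as before, so that this count says nothing about stability. The replicate block left SUCLG2 as the 1 gene of the 8 that passed, and 1599 genes in all. Deviations of same-numbered libraries correlated between -0.106 and 0.047, and 0 of 6 light libraries correlated best with their own number. No pairing of the rats by number was thus seen, which cannot exclude a shared day or batch. The 7 steps in the order of levels passed whichever library was left out.

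Of all genes, 1206 were higher in the dark and 1011 in the light phase, against 860 and 1234 with upper quartile scaling, 1356 and 743 without TTR and the mitochondrial genome, and 225 and 121 with the covariate. The ratio that served as covariate nearly follows the phase, so that their parts cannot be told apart. The reads behind each value are unknown, so no counting error is given, and with 6 rats per phase at 1 time each, intervals reflect the spread between rats.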

Other observations

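The summed level of the 8 genes was 782.7 ± 23.8 TPM in the light group and 761.5 ± 23.3 TPM in the dark group (SD, n = 6 per group), with ranges from 751.4 to 812.1 TPM and from 729.7 to 794.5 TPM that overlapped. The genes varied little between rats of a phase. Their coefficients of variation lay between 2.56 and 6.62% in the light group (median 4.35%) and between 2.54 and 6.58% in the dark group (median 4.81%). For genes with a mean between 50 and 200 TPM the medians were 6.35 and 5.43%, with quartiles of 4.63 and 9.19% in the light and 4.03 and 7.82% in the dark group. The median of the 8 genes lay below the lower quartile in the light group and between the quartiles in the dark group.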
